A study of Mus musculus with 24 samples.

Results

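The transcriptomes of 12 male mouse kidneys were compared, 6 with the tubular peroxisome defect (cKOm) and 6 from littermate controls (Ctrlm), out of 24 kidneys of both sexes. The 12 kidneys were chosen by their labels alone, and every gene that reached 1 CPM (counts per 1000000 reads, after scaling of the libraries to a common size) in at least 6 of them was tested, which was 13920 of 55335 genes. All mice were C57BL/6J and all carried Pex5lox/lox, a Pex5 gene with both alleles flanked by loxP sites. The cKOm mice also carried Pax8-rtTA, which expresses the doxycycline (DOX)-dependent activator in the renal tubule, and LC1, which holds the Cre gene that this activator switches on. The Ctrlm mice lacked both transgenes, so the presence of the transgenes and the loss of Pex5 cannot be told apart here. Every mouse of both groups received DOX for 2 weeks from 8 weeks of age, and whole kidneys were collected 4 weeks after DOX had ended. The time of collection is labelled ZT9 (9 hours after the lights came on), while another label gives ZT3 for all experiments. Cells outside the tubule, such as endothelium, podocytes and leukocytes, keep an intact Pex5 gene in this model and contributed to the same RNA. The female kidneys (Ctrlf and cKOf, 6 each, treated alike) were used only for comparison. The study reports remaining full-length Pex5 transcript and PEX5 protein in cKOf kidneys, with hardly any protein in cKOm, and proposes incomplete excision. By electron microscopy it found almost no peroxisomes in proximal tubules of either sex. Sex and the extent of Pex5 loss therefore cannot be told apart where the sexes are compared.

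PEX5 is the cytosolic receptor that binds the carboxy-terminal targeting signal of most peroxisomal enzymes and delivers them into the organelle. Peroxisomes shorten very-long-chain and branched fatty acids, complete bile acid side chains, begin the synthesis of plasmalogens and break down hydrogen peroxide with catalase. Proximal tubule cells hold many of them. Fatty acids and their CoA esters that are not oxidized can act as ligands of PPAR alpha, a nuclear receptor that switches on genes of peroxisomal and mitochondrial fatty acid oxidation, omega-hydroxylation and ketone synthesis. The mouse kidney also differs strongly between the sexes, mostly in the proximal tubule, where androgens raise a large set of transporters and enzymes. Transcript levels alone were measured here, not proteins or their import.

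Between 19704446 and 28470831 reads per male kidney were counted on genes, so that 3 counts, the limit taken for detection, corresponded to 0.105 to 0.152 CPM (a limit for counting error only). Kidneys of a group differed by more than sampling noise in all 30 pairs, and none was a repeat of another. On the first principal component, which held 40.3% of the variance, the 6 Ctrlm kidneys lay on 1 side and the 6 cKOm kidneys on the other. The kidneys of a group differed in further features. In Ctrlm 5 the summed level of 5 skeletal muscle markers was 41.0 CPM, against 0.788–3.93 in the other Ctrlm kidneys. In 4 Ctrlm kidneys (1 to 4) and 1 cKOm kidney (4), the summed level of 23 hepatocyte marker transcripts was 702 to 1209.6 CPM, against 154 to 254 in the other 7 kidneys. Alb, the albumin transcript, was at 220.0 to 658 CPM in these 5 kidneys and at 14.9 to 33.8 in the others. Counts with this marker level as a covariate, and without the 5 kidneys, are given beside several of the lists. Tubule markers identified the tissue. The 9 proximal tubule markers summed to 12847–15184 CPM in Ctrlm and 10403–11343 CPM in cKOm kidneys, so the groups did not overlap. Of these 9 markers, 5 were called lower and 1 higher, so the sum does not stand for each of them. In whole kidneys fewer cells of a type and less RNA per cell cannot be told apart.

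Pex5 itself (chr6:124396816-124415067, plus strand of GRCm38) was measured first as a check of the labels. Its level was 51.9, 62.5, 54.8, 50.9, 53.5 and 48.4 CPM in Ctrlm 1 to 6 and 43.6, 41.7, 41.8, 41.0, 45.5 and 41.9 CPM in cKOm 1 to 6. Every cKOm kidney lay under every Ctrlm kidney, but by a small margin. The group means were 53.7 ± 4.87 and 42.6 ± 1.66 CPM (SD, n = 6 per group), and the two-sided exact permutation test over mice gave p = 0.00216, the smallest value that 6 against 6 allows. The fitted log2 fold change was -0.33 (SE 0.07, edgeR adjusted p = 0.00421). The adjusted p was 0.0592 with the hepatocyte marker level as a covariate and 0.163 without the 5 kidneys. The count covers all exons and all cells of the kidney, those that keep the gene included. Of the 17 tested peroxins, the proteins that build peroxisomes, 1 rose and 2 fell, Pex5 among them. This share, 17.6%, was near the 14.8% called of all tested genes. Pex11a, a membrane protein of peroxisome division that PPAR alpha induces in liver, rose from 40.8–57.4 CPM to 58.3–71.1 (log2 fold change 0.37, SE 0.09, edgeR adjusted p = 0.00731). Pex11g, another member of the division family, fell from 15.5–26.7 to 10.9–14.6 (log2 fold change -0.54, SE 0.14, edgeR adjusted p = 0.00997). The groups did not overlap for either gene, and the 14 other peroxins did not pass the threshold.

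Across all tested genes, 2062 differed between cKOm and Ctrlm kidneys (14.8% of those tested, edgeR quasi-likelihood test, Benjamini-Hochberg adjusted p under 0.05). Of these, 889 (6.39% of the tested genes) were higher and 1173 (8.43%) lower in cKOm kidneys. Most shifts were moderate, with a median absolute log2 fold change of 0.473 among the called genes, while 295 of them moved by at least 1 on the log2 scale, 97 upward and 198 downward. The median over all tested genes was -0.0045. In 1111 genes (7.98%) the 6 cKOm and 6 Ctrlm kidneys did not overlap at all. The number of calls changed with the treatment of the hepatocyte markers. With their level as a covariate 1255 genes were called (492 higher and 763 lower), and 837 (264 higher and 573 lower) when the 5 kidneys with high levels were left out, where 2 Ctrlm and 5 cKOm kidneys stayed. Called genes were spread over the genome, from 11.2% of the tested genes on chromosome 12 to 17.8% on chromosome 6, the chromosome of Pex5.

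**Figure D1:**
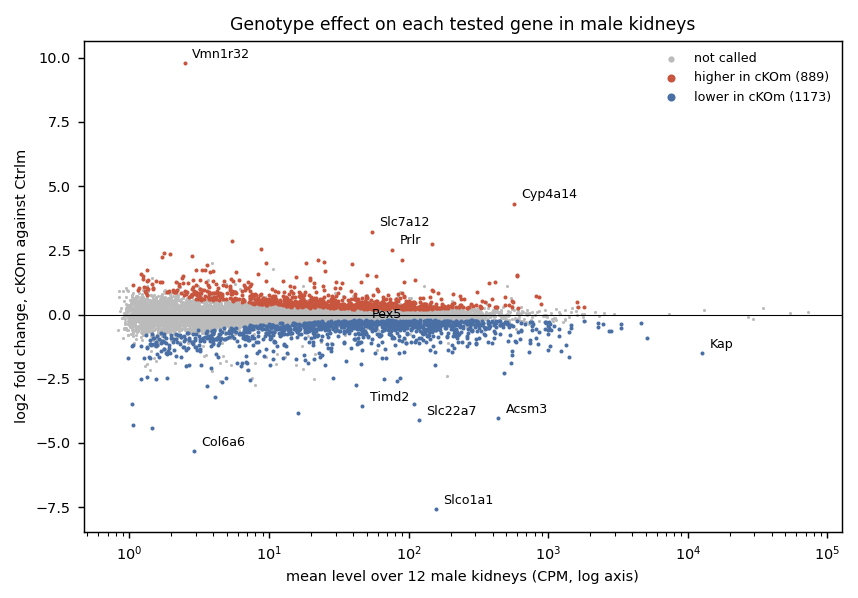
Fitted log2 fold change (cKOm against Ctrlm) of each tested gene on the vertical axis against its mean level over the 12 kidneys on a log axis in CPM, with called genes coloured by direction. The 889 higher and 1173 lower genes span low to high levels, and the falls of Slco1a1 and Col6a6 reach further from 0 than the rise of Cyp4a14. The point near the top is Vmn1r32, which had 0 counts in Ctrlm, so that its fitted value depends on the prior count and is no measure of size.

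The largest rises included those of lipid enzymes. Cyp4a14, a cytochrome P450 that hydroxylates the end of fatty acid chains, lay at 5.71–214 CPM in Ctrlm (median 19.5) and 920.5–1244 CPM in cKOm kidneys (median 1045). All 6 cKOm kidneys were far above all controls, although Ctrlm 6, at 214 CPM, stood well above the other 5 controls (at most 56.1). The fitted values were a log2 fold change 4.31, SE 0.87, edgeR adjusted p = 0.00784. Without the 5 kidneys with high hepatocyte markers, where Ctrlm 6 is 1 of 2 controls, the log2 fold change was 3.34 (edgeR adjusted p = 0.211). Slc7a12, an amino acid transporter, lay at 2.23–20.3 CPM in Ctrlm (median 9.76) and 64.4–129.7 CPM in cKOm kidneys (median 104) (log2 fold change 3.23, SE 0.45, edgeR adjusted p = 8.9e-04). Prlr, the prolactin receptor, rose from a median of 12.5 to 139.6 CPM (log2 fold change 2.52, SE 0.57, edgeR adjusted p = 0.0138), with controls widely spread from 3.89–59.0. Cyp4a12b, another omega-hydroxylase, rose from 4.71–16.6 to 31.9–42.6 CPM. Aldh1a1, which makes retinoic acid, rose from 7.11–16.1 to 30.5–49.5 CPM, and Abcc3, an efflux pump for conjugated organic anions, from 2.18–5.11 to 10.9–19.2. Apoa4, an apolipoprotein made mainly in the intestine, went from 5.68–9.03 to 17.9–45.3 CPM, and Gm20400, a transcript annotated as antisense on chromosome 6, from 0.467–2.99 to 4.07–13.7. The absence of overlap between the groups was a condition of choosing these genes. Gm20400 overlaps another gene on the opposite strand, and the strand setting of the counting is not given in the sources used here, so its reads cannot be told apart from those of its partner.

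The largest falls were deeper. Slco1a1, an organic anion transporter of the proximal tubule brush border, was at 297, 219, 506, 242, 403 and 204 CPM in Ctrlm 1 to 6 and at 1.48, 1.21, 0.931, 2.40, 0.215 and 3.35 in cKOm 1 to 6. Every cKOm kidney was thus far below every Ctrlm kidney (log2 fold change -7.58, SE 0.49, edgeR adjusted p = 3.4e-06), and cKOm 5 was close to the detection limit. Slc22a7, the organic anion transporter OAT2, dropped from 107–381 CPM in Ctrlm (median 231) to 5.54–21.4 CPM in cKOm kidneys (median 12.2) (log2 fold change -4.12, SE 0.41, edgeR adjusted p = 8.6e-05). Acsm3, a mitochondrial acyl-CoA synthetase for medium-chain fatty acids, was at 479–1147 CPM in Ctrlm (median 865) and 28.7–79.2 CPM in cKOm kidneys (median 47.6) (log2 fold change -4.03, SE 0.31, edgeR adjusted p = 8.9e-06). Timd2, a cell surface receptor that binds ferritin, fell from 68.4–100.2 to 4.75–10.5 CPM, and with 4.2e-10 had one of the lowest adjusted p values in these kidneys. Pzp, a secreted protease inhibitor, fell from 139–239.9 to 7.25–33.9 CPM. Pzp and Slco1a1 are also hepatocyte transcripts, so their levels were read in the kidneys with low hepatocyte markers. Slco1a1 was at 403 and 204 CPM in Ctrlm 5 and 6, and Pzp at 212 and 139, within or near the range of the other controls. Leaving out the 5 kidneys, their log2 fold changes were -7.68 and -3.50. Col6a6, a chain of collagen VI, fell from 1.57–13.4 to 0–0.269 CPM, a level at or near the detection limit. Mpped1, a metallophosphoesterase of low abundance, went from 3.61–13.9 to 0.0466–1.86 CPM. The remaining 3 of the 10 largest falls were Gm6300, a pseudogene, and the long noncoding RNAs Gm4208 and Gm15348, with log2 fold changes of -3.82, -2.77 and -2.61.

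**Figure D2:**
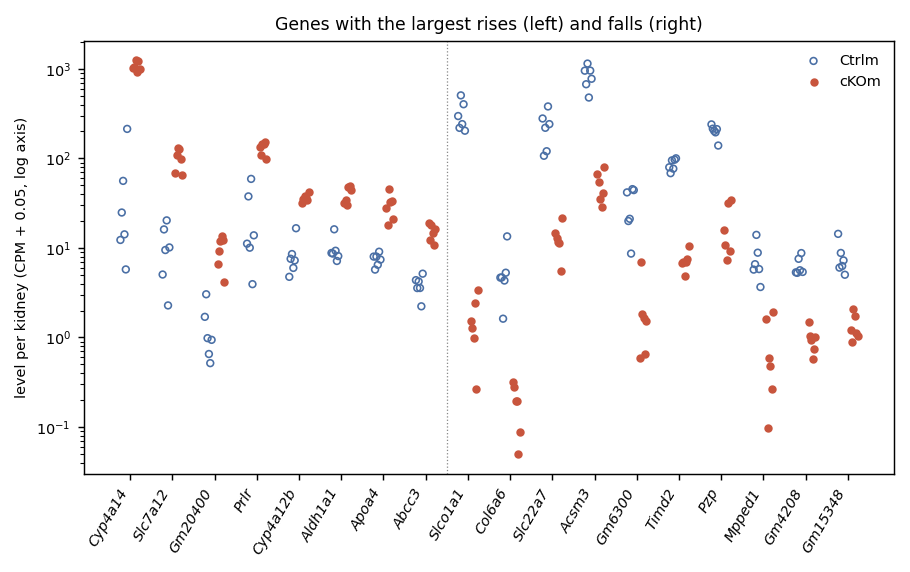
Level of the genes with the largest changes in each male kidney, on a log axis in CPM (0.05 CPM added so that values of 0 can be drawn), with open circles for Ctrlm and filled circles for cKOm. Complete separation of the groups was a condition of choosing these genes. Ctrlm 6 was the highest control for Cyp4a14.

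Some of the falling genes are known to be higher in male than in female kidneys or to be induced by androgen. Of 16 tested genes written down for this property, 13 fell and 1 rose, with a median log2 fold change of -1.43. Of all tested genes, 8.43% were called lower and 6.39% higher. The list was written with earlier results of these data known, so its count is a description only. Kap, an androgen-regulated protein that is among the most abundant transcripts of the male proximal tubule, fell from 13256–30646 CPM to 4518–7674. Cyp7b1, a hydroxylase of oxysterols and steroids, fell from 99.0–193 to 10.5–45.9 CPM, and Slc7a13, an amino acid transporter of the proximal straight tubule, from 644–957 to 119–219.5. Odc1, the first enzyme of polyamine synthesis and a classical androgen target in the mouse kidney, dropped to 463–614 from 723–2486 CPM. For these 4 genes the groups did not overlap, and log2 fold changes were -1.49, -2.58, -2.28 and -1.39 (edgeR adjusted p = 5.7e-05, 3.8e-04, 2.7e-08 and 0.00499). Slc22a30, Cyp2e1 and Nudt19 fell by 1.47, 1.19 and 1.11 on the log2 scale. Cyp4a12b was the exception that rose, and its close copy Cyp4a12a, named with its values in view, at 36.0–144 CPM in Ctrlm and 36.9–53.3 in cKOm, did not pass the threshold (log2 fold change -0.57, SE 0.38, edgeR adjusted p = 0.351). In the male-biased list 1 rose and 13 fell with the hepatocyte marker covariate, and 1 rose and 12 fell without the 5 kidneys. Reads that align to several places were not counted, so values of such near-identical pairs are uncertain.

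Of 5 genes known to be higher in female kidneys, 4 rose (Slc7a12, Cyp4a14, Abcc3 and Prlr) and 1 fell (Cyp2a4, log2 fold change -1.42, SE 0.19, edgeR adjusted p = 1.7e-04). This short list was also written with earlier results known, and the 4 genes are all among the 10 largest rises, so the count is a description only. Levels in all 4 groups, scaled together over the 24 kidneys, are given side by side with no test of resemblance, since a comparison of the control sexes would share the Ctrlm kidneys with this contrast. Slco1a1 lay at 207–515 CPM in Ctrlm and 0.220–3.42 in cKOm, and 0–1.98 in Ctrlf and 0–2.36 in cKOf kidneys, so that cKOm kidneys were near the level of females. Timd2 ranged over 69.8–102 CPM in Ctrlm and 4.84–10.7 in cKOm, and 3.53–5.95 in Ctrlf and 0.622–2.66 in cKOf. Odc1, with 738–2556 CPM in Ctrlm and 471–624 in cKOm, and 398–611 in Ctrlf and 403–513 in cKOf, and Acy3, an aminoacylase, with 1524–2921 CPM in Ctrlm and 554–863 in cKOm, and 503–752 in Ctrlf and 544–802 in cKOf, also came to overlap the female range in cKOm kidneys. For other male-biased genes the fall stopped short. Acsm3 was at 486–1167 CPM in Ctrlm and 29.1–80.8 in cKOm, and 0.951–6.26 in Ctrlf and 1.78–6.93 in cKOf kidneys, and Slc7a13 at 654–984 CPM in Ctrlm and 122–224 in cKOm, and 0.665–6.00 in Ctrlf and 0.0997–5.47 in cKOf. Cyp2j13, a renal epoxygenase chosen with its values in view, was at 216–525 CPM in Ctrlm and 131–187 in cKOm, and 0.476–2.78 in Ctrlf and 0.178–3.35 in cKOf. Upward, Slc7a12 was at 2.29–20.6 CPM in Ctrlm and 65.8–132 in cKOm, and 157–385 in Ctrlf and 101–259 in cKOf kidneys and Prlr at 4.00–59.9 CPM in Ctrlm and 101–154 in cKOm, and 276–422 in Ctrlf and 212–342 in cKOf, both between the control sexes in cKOm. Abcc3 rose too, from 2.24–5.18 CPM to only 11.1–19.5, against 97.6–175 in Ctrlf.

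Several genes did not follow the sex pattern. Slc22a7 was at 109–391 CPM in Ctrlm and 5.67–21.9 in cKOm, and 199–358 in Ctrlf and 187–360.5 in cKOf, so cKOm kidneys lay far below both sexes of control. Gm853, a lysine decarboxylase-like enzyme also called Ldc1, was at 31.8–79.0 CPM in Ctrlm and 5.70–12.6 in cKOm, and 22.6–49.5 in Ctrlf and 24.3–49.5 in cKOf and Bdh1, which interconverts ketone bodies, at 109.8–162 CPM in Ctrlm and 50.7–77.4 in cKOm, and 135–164 in Ctrlf and 119–159.7 in cKOf, again with cKOm below every other group. Enzymes that make the strongest androgen from testosterone fell. Srd5a1, a steroid 5-alpha-reductase, went from 26.6–31.5 to 11.8–14.7 CPM (log2 fold change -1.18, SE 0.09, edgeR adjusted p = 5.3e-08) and Srd5a2 from 5.24–18.4 to 1.52–4.47 (log2 fold change -1.87, SE 0.30, edgeR adjusted p = 5.6e-04). Hsd17b11 and Akr1c21, both hydroxysteroid dehydrogenases, fell as well (-1.18 and -1.12), while Esr1, the estrogen receptor alpha, rose slightly from a median of 19.1 to 25.0 CPM with overlapping groups (log2 fold change 0.47, SE 0.15, edgeR adjusted p = 0.0387). In the list of 14 genes of sex steroid receptors and steroid handling, 4 rose and 6 fell. This was 71.4% called, against 14.8% of all tested genes.

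**Figure D3:**
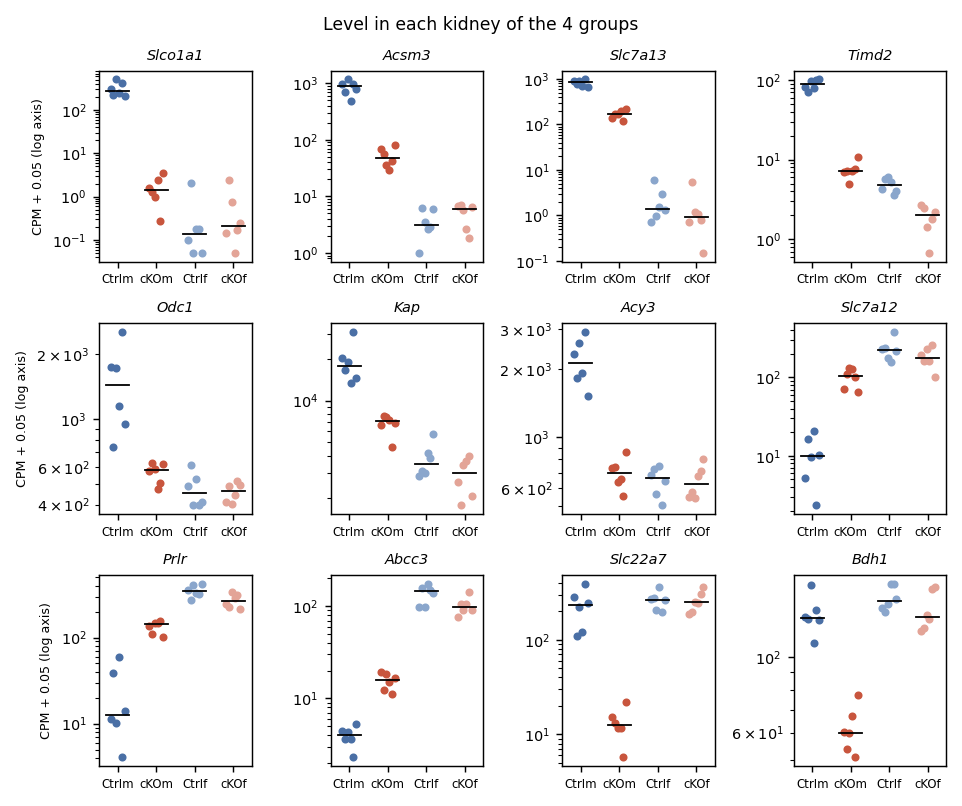
Level of 12 genes in each of the 24 kidneys by group (Ctrlm, cKOm, Ctrlf, cKOf), on a log axis in CPM (0.05 CPM added), with a bar at the group median. Male-biased genes such as Slco1a1, Timd2 and Odc1 sit at or near the female level in cKOm kidneys, Acsm3 and Slc7a13 stop above it, and Slc22a7 falls below every other group.

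Genes of the peroxisome itself moved in both directions. Of 29 tested genes for peroxisomal beta- and alpha-oxidation, 7 rose and 9 fell (together 55.2%, against 14.8% of all tested genes), and the median log2 fold change was -0.03. The rises included known PPAR alpha targets. Acaa1b, a thiolase, went from 158–269 CPM in Ctrlm (median 233) to 414–641 CPM in cKOm kidneys (median 523) (log2 fold change 1.21, SE 0.13, edgeR adjusted p = 3.8e-06). Ehhadh, the bifunctional enzyme of the inducible pathway, rose from 455–798 to 841–1115 CPM (log2 fold change 0.73, SE 0.11, edgeR adjusted p = 1.4e-04). Decr2, a reductase for unsaturated acyl-CoA, had a log2 fold change of 0.67 and Abcd3, which carries acyl-CoA across the peroxisomal membrane, one of 0.47. The falls included enzymes of branched chains and of export. Amacr, the racemase for branched fatty acids and bile acid intermediates, fell from 234–351 to 98.4–117 CPM (log2 fold change -1.39, SE 0.10, edgeR adjusted p = 2.7e-08). Pecr, a trans-2-enoyl-CoA reductase, Nudt19, a CoA diphosphatase, and Crot, which passes shortened chains to carnitine, had log2 fold changes of -1.31, -1.11 and -1.09. Acox3, the oxidase of branched acyl-CoA, fell from 233–351 to 136–156 CPM (log2 fold change -1.06, SE 0.09, edgeR adjusted p = 1.4e-07). Each gene named here had groups without overlap. In this list 5 rose and 7 fell with the hepatocyte marker covariate, and 4 rose and 7 fell without the 5 kidneys.

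For plasmalogens, the ether lipids whose first steps take place in peroxisomes, 5 of 10 tested genes fell and none rose. This was 50% called, against 14.8% of all tested genes (median log2 fold change -0.26). Agps, which forms the ether bond, fell from 378–485 CPM in Ctrlm (median 412) to 175–198 CPM in cKOm kidneys (median 188) (log2 fold change -1.15, SE 0.07, edgeR adjusted p = 9.5e-09). Tmem189, the desaturase that makes the vinyl ether, Chpt1 and Far1, which supplies fatty alcohols, had log2 fold changes of -0.73, -0.54 and -0.49. Among 23 other peroxisomal proteins, 5 fell and 1 rose (26.1% called). Ephx2, the soluble epoxide hydrolase, fell from 329–535 to 197–247 CPM (log2 fold change -0.90, SE 0.10, edgeR adjusted p = 6.1e-06), and Prdx5, a peroxiredoxin found in peroxisomes and mitochondria, had a log2 fold change of -0.79. Pipox, the pipecolic acid oxidase, and Acbd4, a membrane tether, had -0.58 and -0.65. The rise was Pxmp4, with 0.30.

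Among enzymes that split or form acyl-CoA or omega-hydroxylate fatty acids, rises outnumbered falls. Of 14 tested acyl-CoA thioesterases and acyltransferases, 7 rose and 2 fell (median 0.46). This was 64.3% called, against 14.8% of all tested genes. Acot3, a peroxisomal thioesterase, lay at 9.86–26.6 CPM in Ctrlm (median 14.9) and 54.5–76.9 CPM in cKOm kidneys (median 61.3) (log2 fold change 1.97, SE 0.19, edgeR adjusted p = 5.9e-06). Its cytosolic and mitochondrial relatives Acot1 and Acot2 rose from 19.5–38.2 to 56.8–71.2 CPM and by 1.46 on the log2 scale. Acot1 to Acot6 lie side by side on chromosome 12 with similar sequences. Reads that aligned to several of them were not counted, so single values may be too low. Acnat1, which conjugates fatty acids to taurine, had a log2 fold change of 1.08. On the other side, Acot9 and Acot12 had log2 fold changes of -0.62 and -0.61. Of 15 acyl-CoA synthetases, 6 rose and 3 fell (60% called). Acsl1, the main long-chain synthetase, rose from 179–381 to 518–680.0 CPM, with Ctrlm 6 the highest control, and Acsl3, which feeds lipid droplets, from 28.8–58.0 to 59.5–88.1 (log2 fold change 0.98, SE 0.15, edgeR adjusted p = 3.3e-04). Acsm3 and Acsm2, for medium chains, and Acss2, for acetate, fell (-4.03, -0.92 and -0.75). Among 11 Cyp4 genes 5 rose and 1 fell (54.5% called). Beside Cyp4a14 and Cyp4a12b, Cyp4a10 rose from 199–585 to 776–951 CPM and Cyp4a31 from 239.8–432 to 704–1068. Without the 5 kidneys the log2 fold change of Cyp4a10 was 1.21 (edgeR adjusted p = 0.122). Cyp4b1, which acts on short chains and xenobiotics, fell from 1164–2480.4 to 554–914 CPM (log2 fold change -1.40, SE 0.18, edgeR adjusted p = 1.3e-04).

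In the list of PPAR receptors and their targets, 10 of 28 tested genes rose and 2 fell (median 0.25). This was 42.9% called, against 14.8% of all tested genes. The transcript of Ppara itself lay at 17.6–64.4 CPM in Ctrlm and 47.5–73.5 in cKOm (log2 fold change 0.52, SE 0.26, edgeR adjusted p = 0.210), and did not pass the threshold. Angptl4, a secreted inhibitor of lipoprotein lipase, rose from 12.5–49.3 CPM in Ctrlm (median 31.6) to 74.5–101 CPM in cKOm kidneys (median 85.1) (log2 fold change 1.51, SE 0.26, edgeR adjusted p = 0.00222). Pdk4, a kinase that closes the entry of pyruvate into mitochondria, rose from a median of 22.3 to 152 CPM (log2 fold change 2.13, SE 0.44, edgeR adjusted p = 0.00862). Its groups overlapped through Ctrlm 6, at 89.0 CPM, which was above the lowest cKOm kidney at 78.9. Without the 5 kidneys Pdk4 had a log2 difference of 1.58 (edgeR adjusted p = 0.191). Ucp2, an uncoupling protein, and Vnn1, a pantetheinase, were chosen with their values in view and rose by 1.25 and 0.82 on the log2 scale. Cd36, the fatty acid translocase, and Acadm, the medium-chain acyl-CoA dehydrogenase, fell (-0.75 and -0.55), both with overlapping groups. Fabp1, the liver-type fatty acid binding protein, was at 1.03–29.1 CPM in Ctrlm and 6.14–38.9 in cKOm, with overlap (log2 fold change -0.17, SE 0.76, edgeR adjusted p = 0.913). It is a liver gene as well, and in the 7 kidneys with low hepatocyte markers it was at 2.65 and 1.03 CPM in Ctrlm and at 6.14–16.1 CPM in cKOm, where the log2 fold change was 2.41 (edgeR adjusted p = 0.0441). Fabp1 was chosen with its values in view.

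**Figure D4:**
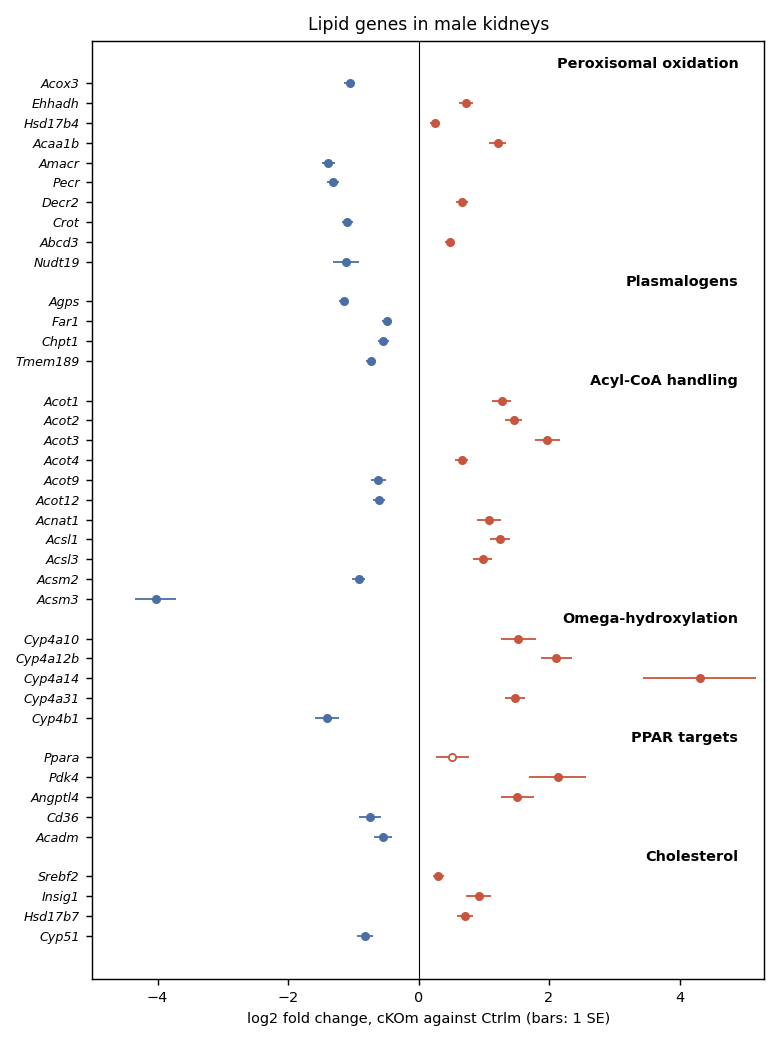
Fitted log2 fold change (cKOm against Ctrlm, bars of 1 SE) of genes of peroxisomal oxidation, plasmalogen synthesis, acyl-CoA handling, omega-hydroxylation, PPAR targets and cholesterol synthesis, with filled circles for genes past the threshold. Acot1, Acot3, Cyp4a10 and Cyp4a14 lie to the right of 0, and Amacr, Agps, Crot, Acox3 and Acsm3 to the left.

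Mitochondrial fatty acid oxidation was split, with 6 of 25 tested genes higher and 6 lower (48% called). The rises included Acaa2, the mitochondrial thiolase (log2 fold change 0.80, SE 0.11, edgeR adjusted p = 4.6e-05), Slc25a20, the carnitine-acylcarnitine carrier (0.77), and Hadha, of the trifunctional protein for long chains (0.33). Of the falls, Bdh1 went from 108–159 to 49.6–75.8 CPM and Acat1, the acetoacetyl-CoA thiolase, from a median of 1053 to 588, and Acads, the short-chain dehydrogenase, had a log2 fold change of -0.49. Cpt1a, the gate of the pathway, had a log2 fold change of 0.22 (edgeR adjusted p = 0.134) and did not pass. Of 76 nuclear genes for oxidative phosphorylation, 8 fell and 1 rose (median -0.14), or 11.8% called against 14.8% of all tested genes. In this list 0 rose and 4 fell with the hepatocyte marker covariate, and 0 rose and 7 fell without the 5 kidneys. The falls were small, from Ndufa4 (-0.40) and Uqcrfs1 (-0.36) to Sdhb (-0.30), and the rise was Cox7a1, a subunit typical of muscle (0.65). None of the 7 tested mitochondrially encoded genes (of 13 on the list) passed the threshold, with a median of 0.02.

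Among genes of cholesterol metabolism, calls were mostly rises. Of 24 tested genes controlled by the sterol sensor SREBP2, 12 rose and 1 fell (54.2% called, median log2 fold change 0.35). With the hepatocyte marker covariate 5 rose and 1 fell, and without the 5 kidneys 2 rose and 1 fell. The cause of this change in the count was not tested. Insig1, which retains SREBP in the endoplasmic reticulum and is itself a target, rose from a median of 42.2 to 86.6 CPM (log2 fold change 0.92, SE 0.19, edgeR adjusted p = 0.00552), and Hsd17b7, of the later steps, from 15.4–25.9 to 30.7–43.4. Srebf2 itself had a log2 fold change of 0.30 (edgeR adjusted p = 0.0239). The member that fell was Cyp51, the lanosterol demethylase, from 228–406 to 170.2–228 CPM (log2 fold change -0.82, SE 0.12, edgeR adjusted p = 1.4e-04). The log2 fold changes of Insig1, Hsd17b7, Srebf2 and Cyp51 were 0.76, 0.72, 0.29 and -0.99 with the covariate. Without the 5 kidneys those of the same genes were 0.91, 0.91, 0.32 and -1.06. Hmgcs1, at the start of the pathway, was chosen with its values in view and had a log2 fold change of -0.24 (edgeR adjusted p = 0.129). Fatty acid synthesis, elongation and desaturation gave 5 rises and 5 falls among 24 tested genes (41.7% called, against 14.8% of all tested genes). With the hepatocyte marker covariate 3 of these genes rose and 4 fell, and without the 5 kidneys 0 rose and 3 fell. Elovl6, which elongates palmitate, rose from 18.2–44.7 to 53.8–93.2 CPM (log2 fold change 1.54, SE 0.23, edgeR adjusted p = 6.5e-04). Without the 5 kidneys Elovl6 had a log2 difference of 1.22 (edgeR adjusted p = 0.112). Scd2 and Fads1, both desaturases, had log2 fold changes of 0.95 and 0.90. Me1, malic enzyme, and Mlxipl, the carbohydrate-responsive factor ChREBP, fell (-0.75 and -0.42), and Fasn did not pass (0.63 (edgeR adjusted p = 0.352)). For triglycerides, 2 of 21 genes rose (Gpat3 0.78 and Mgll 0.73) and 5 fell (33.3% called). Among the falls was Lpl, lipoprotein lipase (log2 fold change -0.98, SE 0.17, edgeR adjusted p = 0.00111).

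Promoters were searched for the motifs of the nuclear receptors, of the sterol factors and of NRF2. RefSeq promoters (build GRCm38.p6, 250 bases before to 50 after the start) matched 10600 of the tested genes by symbol, and both strands were searched. The element bound by PPAR with RXR, 2 copies of AGGNCA with 1 base between them, occurred in 0.311% of these genes and in 1 of 22 matched PPAR receptors and targets (Fabp1). The single site AGGTCA occurred in 15.2% of all genes, in 9 of the 22 and in 2 of 8 matched largest falls, Slco1a1 among them. The sterol element core TCACNCCAC occurred in 1.42% of all genes and in 1 of 17 cholesterol genes (Hmgcs1), but also in 2 of 22 PPAR genes (Ehhadh and Ucp2). The core of the antioxidant element, TGACNNNGC, occurred in 16.9% of all genes and in 9 of 19 matched NRF2 regulators and targets. The element of steroid receptors, GNACA and TGTNC with 3 bases between them, occurred in 0.453% of all genes and in 0 of 11 male-biased genes. A repeat that has T at the fourth base of a copy also holds the single site, so both counts can include the same gene. The windows are short, and a match is a description of letters only. Shown are Slco1a1, the largest fall, with the single site in capitals, and the single matches among PPAR genes (Fabp1, direct repeat) and among cholesterol genes (Hmgcs1, sterol core), each in capitals (a motif on the other strand appears as its reverse complement).
Slco1a1, chr6:141946913-141947212 (minus strand): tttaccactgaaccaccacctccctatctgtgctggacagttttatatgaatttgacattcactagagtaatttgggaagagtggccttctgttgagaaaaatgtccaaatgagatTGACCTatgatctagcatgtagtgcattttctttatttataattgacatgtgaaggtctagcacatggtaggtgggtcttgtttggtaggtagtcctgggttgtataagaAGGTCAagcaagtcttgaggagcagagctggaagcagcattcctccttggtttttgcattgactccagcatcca
Fabp1, chr6:71199629-71199928 (plus strand): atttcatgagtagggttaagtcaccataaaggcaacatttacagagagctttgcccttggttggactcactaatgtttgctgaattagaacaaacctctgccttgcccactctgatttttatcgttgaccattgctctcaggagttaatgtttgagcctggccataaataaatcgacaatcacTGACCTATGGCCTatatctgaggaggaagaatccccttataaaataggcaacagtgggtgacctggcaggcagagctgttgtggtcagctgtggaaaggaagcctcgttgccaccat
Hmgcs1, chr13:119690101-119690400 (plus strand): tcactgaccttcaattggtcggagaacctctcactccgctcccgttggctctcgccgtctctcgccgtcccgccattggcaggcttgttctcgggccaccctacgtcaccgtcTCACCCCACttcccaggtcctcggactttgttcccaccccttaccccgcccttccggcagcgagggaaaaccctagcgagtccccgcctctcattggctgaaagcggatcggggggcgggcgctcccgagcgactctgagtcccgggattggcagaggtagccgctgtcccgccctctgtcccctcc

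Antioxidant enzymes were lower rather than higher. Of 22 tested catalases, dismutases, peroxiredoxins, glutathione peroxidases and methionine sulfoxide reductases, 12 fell and none rose (median -0.29, 54.5% called). Prdx5, Msrb1, Prdx1 and Txn1 had log2 fold changes of -0.79, -0.74, -0.72 and -0.69, and Cat, the peroxisomal catalase, one of -0.33 (edgeR adjusted p = 0.00157). In glutathione synthesis and the gamma-glutamyl cycle, 6 of 13 tested genes fell and 1 rose (53.8% called, against 14.8% of all tested genes). Ggt1, the brush-border enzyme that opens glutathione, fell from 865–1462 CPM in Ctrlm (median 1152) to 456–588 CPM in cKOm kidneys (median 537) (log2 fold change -1.14, SE 0.12, edgeR adjusted p = 2.7e-06). Lap3, a leucine aminopeptidase, and Ggct, which releases pyroglutamate, had -1.06 and -0.96, and the rise was Ggt6 (0.72). Gclc, of the rate-limiting step, had -0.35 (edgeR adjusted p = 0.0888). Glutathione S-transferases went both ways, with 3 of 19 higher and 3 lower (31.6% called). Gstm1 fell from 309–349.5 to 131–186 CPM, while the scarce Gstm6 rose from 0.311–1.86 to 2.47–4.71. Of 22 regulators and targets of NRF2, the factor that answers oxidative and electrophilic stress, 3 rose and 8 fell (50% called). Abcc4, an efflux pump, rose by 0.69 and Me1, Prdx1 and Fth1, the ferritin heavy chain, had log2 fold changes of -0.75, -0.72 and -0.66. Nfe2l2, which encodes NRF2, had a log2 fold change of 0.06 (edgeR adjusted p = 0.620).

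Transport changed mainly at organic ion carriers of the proximal tubule. Of 29 tested Slc22 and Slco genes, 15 fell and 2 rose (median -0.41, 58.6% called). After Slco1a1 and Slc22a7, the deepest falls were those of Slc22a28, from 72.2–122 to 24.3–43.4 CPM (log2 fold change -1.70, SE 0.15, edgeR adjusted p = 1.3e-06), and Slc22a30, from 117–170.0 to 36.1–63.2. Slc22a12, the urate transporter URAT1, and Slc22a6, the organic anion exchanger OAT1, had log2 fold changes of -1.05 and -0.67. The rises, Slc22a23 (0.53) and Slc22a17 (0.37), were small. Efflux pumps of the Abcb and Abcc families gave 3 rises and 3 falls of 13 (46.2% called, against 14.8% of all tested genes). Abcb1b, a P-glycoprotein, rose from 6.55–15.4 CPM in Ctrlm (median 9.35) to 16.2–37.4 CPM in cKOm kidneys (median 27.3) (log2 fold change 1.41, SE 0.24, edgeR adjusted p = 0.00127). Amino acid transporters gave 7 rises and 6 falls of 31 (41.9% called). The pair Slc7a12 and Slc7a13 moved in opposite directions (3.23 and -2.28). Slc6a20a, for proline, rose (0.81) and Slc1a4, for neutral amino acids, fell (-0.93). Among carriers of sugars, phosphate, sulfate, urate and carboxylates, 7 of 30 fell and 3 rose (33.3% called). Slc17a3, which secretes urate, fell from 593–799 to 308–403 CPM, and Slc34a2, a phosphate carrier of low level in kidney, rose from 2.04–4.27 to 5.33–8.22 (log2 fold change 1.09, SE 0.19, edgeR adjusted p = 5.5e-04).

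Genes of endocytosis and bicarbonate handling moved in both directions. Of 12 megalin-cubilin genes 2 rose and 2 fell (33.3% called, against 14.8% of all tested genes). Lrp2, which encodes megalin, was at -0.35 (edgeR adjusted p = 0.00295) and Dab2, its adaptor, at 0.43 (edgeR adjusted p = 6.5e-04) on the log2 scale. In this list 1 rose and 1 fell with the hepatocyte marker covariate, and 1 rose and 2 fell without the 5 kidneys. Of 17 genes of bicarbonate transport and ammoniagenesis 2 rose and 3 fell (29.4% called). With the hepatocyte marker covariate 1 of these genes rose and 2 fell, and without the 5 kidneys 2 rose and 2 fell. Car4, the membrane carbonic anhydrase of the brush border, fell from 103–159.9 to 60.3–76.3 CPM (log2 fold change -1.05, SE 0.10, edgeR adjusted p = 7.6e-07), and Car2, its cytosolic counterpart, had 0.54 (edgeR adjusted p = 3.2e-05). Among 30 genes of thick limb and distal convoluted tubule 3 rose and none fell, 10% called against 14.8% of all tested genes (Slc12a1 0.31 and Egf 0.31 among them). Of 17 principal cell genes 3 rose and none fell (17.6% called). In the thick limb and distal list 2 rose and 1 fell with the hepatocyte marker covariate, and 0 rose and 1 fell without the 5 kidneys, and in the principal cell list 1 rose and 0 fell with the hepatocyte marker covariate, and 0 rose and 0 fell without the 5 kidneys. In intercalated cells 3 of 16 rose and 1 fell (25% called). The fall was that of Slc4a1, the anion exchanger AE1 (log2 fold change -0.70, SE 0.12, edgeR adjusted p = 4.9e-04). Slc4a1 is also an erythroid transcript, and the summed erythroid markers were 55.3–123 CPM in Ctrlm and 45.8–78.5 CPM in cKOm kidneys. The part of red cells in this value was not tested. In the renin-angiotensin system 4 of 11 genes fell and 1 rose (45.5% called). Ace, the converting enzyme of the brush border, had -0.79 (edgeR adjusted p = 7.7e-04), and Mas1, the receptor of angiotensin 1-7, fell to 0.215–1.22 from 1.30–3.34 CPM. Cyp27b1, which activates vitamin D, fell from a median of 5.29 to 1.88 CPM with overlapping groups (log2 fold change -1.66, SE 0.45, edgeR adjusted p = 0.0245), and Slc34a1, the main phosphate carrier, had -0.35 (edgeR adjusted p = 0.00759).

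Intermediary metabolism of the proximal tubule leaned downward. Of 21 genes of methionine, cysteine and betaine metabolism, 14 fell and none rose (66.7% called, median -0.44). Ahcy, which clears S-adenosylhomocysteine, fell from 35.3–66.3 CPM in Ctrlm (median 45.7) to 18.7–25.1 CPM in cKOm kidneys (median 22.4) (log2 fold change -1.09, SE 0.14, edgeR adjusted p = 2.9e-05). Ethe1, the persulfide dioxygenase, Cbs, of transsulfuration, and Csad, of taurine synthesis, had log2 fold changes of -1.07, -1.08 and -0.97. Gluconeogenesis gave 7 falls and 1 rise of 16 (50% called, against 14.8% of all tested genes). G6pc, whose product releases glucose, had -0.73 (edgeR adjusted p = 0.00532) with overlapping groups, and Pcx, pyruvate carboxylase, -0.54 (edgeR adjusted p = 6.6e-05), while Fbp2, the muscle-type bisphosphatase, rose (0.89 (edgeR adjusted p = 6.5e-04)). Pck1, the usual rate-limiting enzyme, was at 809–1643 and 829–2335 CPM and did not pass. In pyruvate and lactate metabolism 6 of 26 fell and 2 rose (30.8% called). Ldhd, for D-lactate, fell from 822–1357 to 335–489 CPM (log2 fold change -1.46, SE 0.12, edgeR adjusted p = 1.4e-07). For glyoxylate and oxalate, 6 of 14 fell and 1 rose (50% called). Hoga1, which makes glyoxylate from hydroxyproline, was at -0.73 (edgeR adjusted p = 9.3e-06). Among kynurenine and NAD genes 6 of 13 fell and 2 rose (61.5% called). Ido2 fell from 9.29–13.5 to 1.26–5.24 CPM, whereas Kynu, kynureninase, rose from a median of 6.29 to 17.8 (log2 fold change 1.31, SE 0.31, edgeR adjusted p = 0.013). Of 10 Nat8 acetyltransferases and aminoacylases 4 fell and 2 rose (60% called). Acy3, which deacetylates mercapturates, fell from 1503–2841 to 542–845 CPM (log2 fold change -1.64, SE 0.15, edgeR adjusted p = 1.1e-06).

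Arginine, proline and creatine genes were divided, with 3 rises and 2 falls of 13 (38.5% called, against 14.8% of all tested genes). Ass1, of arginine synthesis, fell (-0.85 (edgeR adjusted p = 1.3e-06)), and Arg2, the mitochondrial arginase, rose (0.87 (edgeR adjusted p = 0.039)). In polyamine metabolism 4 of 14 fell (28.6% called), led by Gm853, from 31.1–76.8 to 5.60–12.4 CPM, and Odc1. Of 19 renal P450 genes of the Cyp2 and related families, 10 fell and none rose (median -0.82, 52.6% called). Cyp2d9 fell from 82.0–240.0 CPM in Ctrlm (median 123) to 11.9–43.3 CPM in cKOm kidneys (median 25.9) (log2 fold change -2.47, SE 0.41, edgeR adjusted p = 0.00249), and Cyp2d12 had -1.93 (edgeR adjusted p = 0.00596). Cyp2d9 is also a liver transcript of males, and leaving out the 5 kidneys gave a log2 fold change of -1.94 (edgeR adjusted p = 0.0779).

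**Figure D5:**
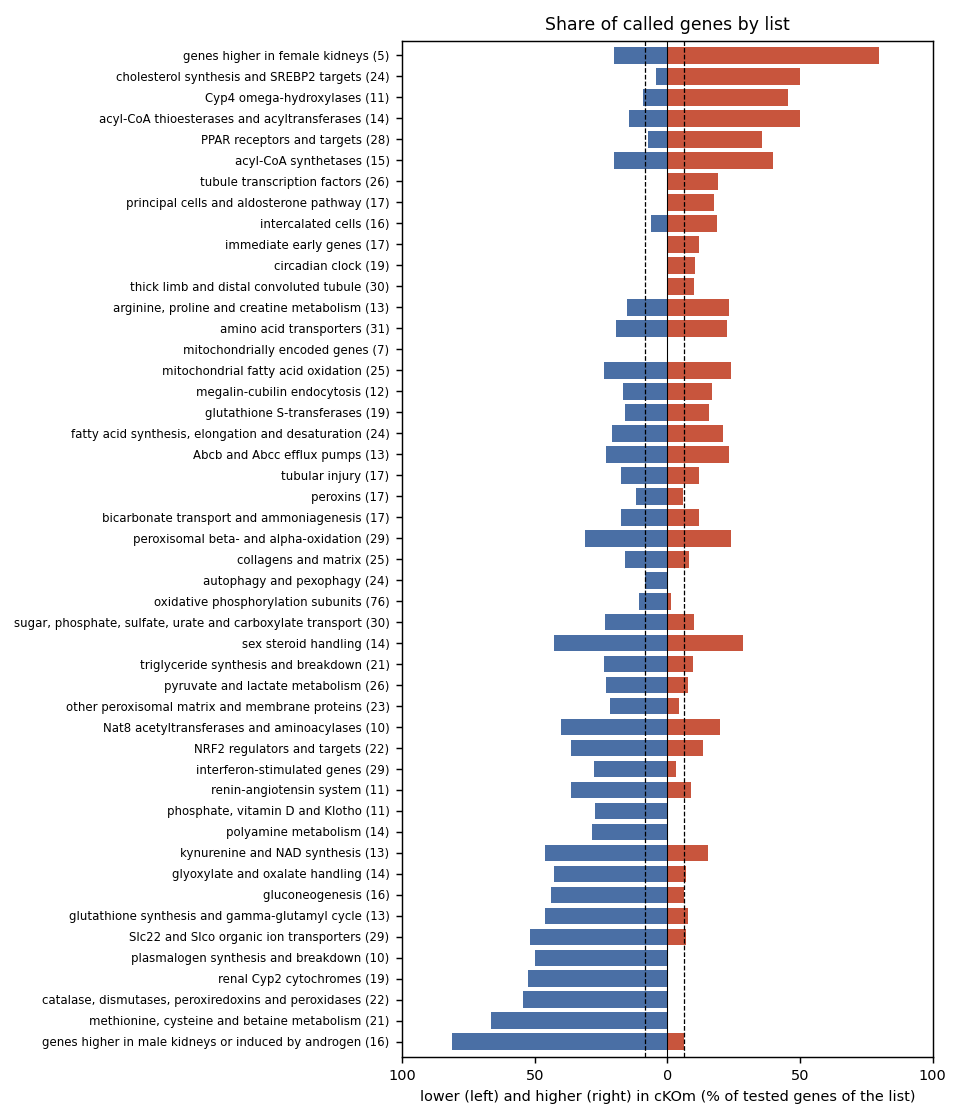
Share of the tested genes of each gene list that was called higher (bars to the right) or lower (bars to the left) in cKOm kidneys, in percent, with the number of tested genes beside the name and dashed lines at the shares over all tested genes (6.39% higher and 8.43% lower). The lists of male-biased genes, methionine metabolism, antioxidant enzymes, renal Cyp2 cytochromes and organic ion transporters reach over 50% to the left, and that of female-biased genes, with 4 of 5, reaches furthest to the right. All lists were written with earlier results of these data known.

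Among regulators, the lists held few calls, given here as shares beside the 14.8% called of all tested genes. Of 26 tubule transcription factors 5 rose and none fell (19.2% called). Among them were Nr1i2, the xenobiotic receptor PXR, from 6.65–11.8 to 12.2–15.1 CPM (log2 fold change 0.71, SE 0.13, edgeR adjusted p = 0.00106), and Stat5a, a mediator of prolactin and growth hormone signals (0.41 (edgeR adjusted p = 0.0212)). The clock gave 2 rises of 19, or 10.5% called (Bhlhe40 0.32 and Bhlhe41 0.56), with Arntl at -0.37 (edgeR adjusted p = 0.370). Sik1, a salt-inducible kinase of the immediate early class, rose from 53.0–79.9 CPM in Ctrlm (median 57.4) to 135–194 CPM in cKOm kidneys (median 157) (log2 fold change 1.35, SE 0.12, edgeR adjusted p = 4.4e-07). Fos did not pass (0.98 (edgeR adjusted p = 0.290)), and 2 of 17 in the immediate early list rose (11.8% called). Of 24 autophagy and pexophagy genes 2 fell, Sqstm1 (-0.31) and Gabarap (-0.25), and none rose (8.33% called).

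Markers of injury, matrix and interferon were called in both directions, with more falls than rises. In the injury list 2 of 17 genes rose and 3 fell (29.4% called, against 14.8% of all tested genes). Havcr1, which encodes KIM-1 of damaged proximal tubules, was scarce and fell from a median of 2.08 to 0.926 CPM with overlap (log2 fold change -1.37, SE 0.43, edgeR adjusted p = 0.0432), and Spp1, osteopontin, rose (0.67 (edgeR adjusted p = 0.0189)), as did Cp, ceruloplasmin (0.72 (edgeR adjusted p = 0.0026)). Of 25 collagen and matrix genes 2 rose and 4 fell (24% called), Tgfbi deepest (-0.57 (edgeR adjusted p = 0.00405)). Of 29 interferon-stimulated genes 1 rose (Ddx58, 0.44 (edgeR adjusted p = 0.00282)) and 8 fell (31.0% called). Among the falls were Oas1a at -0.71 (edgeR adjusted p = 0.0414), Bst2 at -0.70 (edgeR adjusted p = 0.00512) and Zbp1 at -0.65 (edgeR adjusted p = 0.012). In the injury list 1 rose and 0 fell with the hepatocyte marker covariate, and 0 rose and 0 fell without the 5 kidneys. In the matrix list 0 rose and 2 fell with the hepatocyte marker covariate, and 0 rose and 0 fell without the 5 kidneys. In the interferon list 1 rose and 3 fell with the hepatocyte marker covariate, and 1 rose and 1 fell without the 5 kidneys. Beside these, the summed level of 9 macrophage markers was 229–392 CPM in Ctrlm and 156–241 CPM in cKOm kidneys, and that of 10 lymphocyte markers 6.99–12.4 CPM in Ctrlm and 4.38–7.50 CPM in cKOm kidneys. Both moved downward with the interferon and matrix genes, and their part in those results was not tested. Fibroblast and pericyte markers summed to 270.2–389 CPM in Ctrlm and 286–329 CPM in cKOm kidneys, and podocyte markers to 456–565 CPM in Ctrlm and 525–571 CPM in cKOm kidneys.

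Vmn1r32 was counted in kidneys of cKO mice of both sexes and in no control kidney. This vomeronasal receptor gene (chr6:66552180-66560096, GRCm38), had 0 counts in all 6 Ctrlm kidneys and 99 to 144 counts in cKOm kidneys (median 105), at least 32.7-fold higher against the limit of 3 counts per library. It had 30 to 126 counts in cKOf kidneys and 0 in all Ctrlf kidneys, so it followed genotype in both sexes. Of 10 other genes tested within 2000000 bases on either side, 0 were called in males by edgeR (lowest adjusted p = 0.180). The gene lies on chromosome 6, as Pex5 does, but Pex5 is outside this window. Only cKO mice carried the transgenes, and why Vmn1r32 followed genotype was not tested.

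The male effect was set against the female one by the interaction of genotype and sex in a model of all 24 kidneys. Sex and the extent of Pex5 loss cannot be told apart in it. The interaction passed the threshold in 378 of 14581 genes (2.59%). Of the 2062 genes called in males, 356 were among them. In this model 37 genes were called in females. The male log2 fold change minus the female one was -8.21 for Slco1a1 (edgeR adjusted p = 0.00115), -4.10 for Slc22a7 (6.8e-06) and -4.48 for Acsm3 (4.3e-05). For Slc7a12 it was 3.57 (2.6e-04), and for Sik1 1.50 (1.1e-06). Of the 16 male-biased genes 10 passed this test. In Ctrlf kidneys Slco1a1 and Acsm3 were at 0–1.98 and 0.951–6.26 CPM, which left little room to fall, whereas Slc22a7 was at 199–358 CPM. For a gene scarce in females, a difference between the sexes is thus no measure of a different response. Of the PPAR genes, 2 of 28 passed the test. Acaa1b had a female log2 fold change of 1.14 beside 1.21 in males (difference 0.07, edgeR adjusted p = 0.911), and Angptl4 1.35 beside 1.51 (difference 0.16, edgeR adjusted p = 0.926). Of 24 cholesterol genes 1 passed it, namely Cyp51. A missed threshold does not show that the sexes responded alike.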

How the data were processed

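RNA of whole kidneys was sequenced as strand-marked poly(A) libraries. The authors deposited 1 file per kidney with whole read counts per gene, not normalized. Per the submitters' processing notes, reads were trimmed with cutadapt 1.8, aligned with STAR 2.5.3a to GRCm38 and counted with HTSeq 0.9.1. The strand setting of the counting is not given in the sources used here. Reads that aligned to several places (27.8% to 34.8% in males) were not counted, which lowers genes with near-identical copies. In males 7.67% to 10.3% of the remaining reads fell on no gene or on several, and the 5 closing lines that hold such reads were set aside. The share on no gene was 6.48% to 8.296% in Ctrlm and 8.303% to 9.25% in cKOm kidneys, so the male groups did not overlap. In females it was 6.65% to 9.12% in Ctrlf and 6.41% to 8.66% in cKOf. The part of this difference in the male results was not tested. Names and positions came from GENCODE M21, which held 55154 of 55335 genes.

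Groups were taken from the labels. Counts of the 12 male kidneys were fitted with edgeR 4.0.16 (TMM, robust quasi-likelihood test, R 4.3.3) for genes that reached 1 CPM in 6 kidneys or more, with Benjamini-Hochberg adjustment over every tested gene and a threshold of 0.05. CPM used TMM library sizes, and a standard error is the fold change divided by the root of F. The interaction of genotype and sex was fitted on 24 kidneys. Nothing in the labels ties samples of a group to separate litters, so p values measure the spread between these mice. The procedure was tested on simulated data. The members and lists were chosen with earlier results of these data known. Genes were named if they were Pex5, among the 10 largest rises or falls past the threshold with no overlap and a group mean of 5 CPM or more, present in 1 genotype only, first or among the 4 largest called changes of a list in each direction, or named for the transcriptome in the study. A few genes that fall under it are not reported here but stay in all counts. Alternatives were RLE and upper quartile normalization, other filters, limma-voom (limma 3.58.1), DESeq2 1.42.0, the replicate number as a block, a hepatocyte marker covariate, 1 model for 4 groups, each kidney left out in turn and, chosen after seeing the data, the 5 kidneys with over 500 CPM of hepatocyte markers left out. A comparison of protein endings was planned and not run, since protein sequences were not used here. Python 3.11.15 with numpy 2.4.6, pandas 2.3.3 and matplotlib 3.10.9 drew the figures.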

Additional observations from a re-analysis of the deposited data

Results flagged for a closer look

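In 35 of 338 checks (each of 169 genes given above in the Ctrlm and in the cKOm group), 1 kidney lay apart from the other 5 by Dixon's test. Chance alone marks about 1 in 20 such groups. Ctrlm 6 stood apart for Arntl (12.8 CPM, others 3.77–7.14), Col6a6 (13.4 CPM, others 1.57–5.24), Cyp4a12b (16.6 CPM, others 4.71–8.50), Cyp4a14 (214 CPM, others 5.71–56.1), Fasn (202 CPM, others 31.9–93.7), Pdk4 (89.0 CPM, others 18–30.5) and Spp1 (1090.0 CPM, others 499.6–676). Ctrlm 3 stood apart for Ace (450.5 CPM, others 227–279), Aldh1a1 (16.1 CPM, others 7.11–9.26), Cd36 (688 CPM, others 327–447), Cyp27b1 (15.4 CPM, others 3.05–7.04), Mas1 (3.34 CPM, others 1.30–1.92) and Pxmp4 (134 CPM, others 93.9–107). Ctrlm 5 stood apart for Cp (48.9 CPM, others 69.6–78.3), Egf (1363 CPM, others 1616–1724), Ggct (91.4 CPM, others 38.0–50.5), Kap (30646 CPM, others 13256–19774), Pex11g (26.7 CPM, others 15.5–19.3) and Sdhb (357 CPM, others 253–286). cKOm 3 stood apart for Cp (169 CPM, others 89.2–114), Ggt6 (12.9 CPM, others 7.78–9.25), Havcr1 (2.94 CPM, others 0.386–1.03) and Lrp2 (1792 CPM, others 2011–2126). cKOm 4 stood apart for Ehhadh (841 CPM, others 1029–1115), Fabp1 (38.9 CPM, others 6.14–16.1) and Srd5a1 (14.7 CPM, others 11.8–12.8). cKOm 5 stood apart for Kap (4518 CPM, others 6532–7674), Lap3 (213 CPM, others 239–249) and Prdx5 (346 CPM, others 392–403). cKOm 1 stood apart for Cbs (122 CPM, others 69.0–86.6) and Fos (27.9 CPM, others 3.46–5.13). Ctrlm 2 stood apart for Slc22a17 (19.1 CPM, others 11.8–14.2). Ctrlm 4 stood apart for Slc22a28 (72.2 CPM, others 106–122). cKOm 2 stood apart for Gm6300 (6.90 CPM, others 0.538–1.76). cKOm 6 stood apart for Crot (193 CPM, others 163–172).

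The male log2 fold change differed from the female one by edgeR's interaction test (Benjamini-Hochberg over 14581 genes) for 80 of the genes given above. It was lower in males for 57 and higher for 23. A gene scarce in Ctrlf kidneys, such as Slco1a1, had little room to fall in cKOf kidneys. The male minus female differences on the log2 scale that were furthest below 0 were Slco1a1 -8.21, Col6a6 -4.63, Acsm3 -4.48, Slc22a7 -4.10, Pzp -3.57, Gm4208 -2.80, Cyp4a12a -2.51, Cyp7b1 -2.45, Cyp2d9 -2.30, Gm853 -2.21, Timd2 -2.21, Gm15348 -2.06 and Cyp4b1 -2.04. Next came Acy3 -1.64, Ido2 -1.52, Srd5a2 -1.44, Cyp2a4 -1.44, Cyp2e1 -1.36, Odc1 -1.35, Amacr -1.35, Ldhd -1.25, Hsd17b11 -1.16, Car4 -1.10, Ephx2 -1.08, Pecr -1.08, Ggt1 -1.06, Ggct -1.05, Ethe1 -1.03, Csad -1.01 and Slc22a12 -1.0. Smaller negative differences were Agps -1.0, Crot -1.0, Bdh1 -0.99, Lap3 -0.97, Nudt19 -0.96, Acsm2 -0.94, Ahcy -0.93, Gstm1 -0.93, Acat1 -0.92, Slc17a3 -0.90, Cyp51 -0.87, Ace -0.79, Srd5a1 -0.79, Akr1c21 -0.76, Acox3 -0.76, Me1 -0.76, Prdx5 -0.73, Acot12 -0.70, Tmem189 -0.61, Acss2 -0.60, Fth1 -0.60, Slc22a6 -0.58, Pipox -0.52, Acads -0.52, Chpt1 -0.50, Hoga1 -0.48 and Cat -0.39. Positive differences, where the male change lay above the female one, were Slc7a12 3.57, Prlr 2.91, Gm20400 2.67, Abcc3 2.42, Apoa4 1.60, Sik1 1.50, Slc34a2 1.49, Kynu 1.37, Elovl6 1.36, Arg2 1.26, Abcb1b 1.16, Acnat1 1.09, Aldh1a1 1.04, Acot3 1.01, Cp 0.97, Acsl1 0.95, Abcc4 0.95, Acot2 0.85, Stat5a 0.72, Nr1i2 0.71, Slc6a20a 0.68, Cyp4a31 0.64 and Fads1 0.56. Their adjusted p values ranged from 3.7e-07 to 0.0494.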

How the results depend on the processing

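Of 2062 genes called between cKOm and Ctrlm kidneys, the count stayed within 1.5 times under RLE (2069), upper quartile normalization (2057), limma-voom (2038), DESeq2 (2558), the other filters (1865 to 2080) and 1 model for 4 groups (1843). It was 1595 to 2099 with each kidney left out in turn, lowest without cKOm 2. It moved to 1255 with the hepatocyte marker covariate and to 837 without the 5 kidneys over 500 CPM of these markers, where fewer samples were compared. Of 157 called genes given above apart from Pex5, 21 missed the threshold with the covariate (Abcc4, Arg2, Cd36, Cox7a1, Cyp27b1, G6pc, Gabarap, Havcr1, Insig1, Kynu, Ndufa4, Oas1a, Pxmp4, Slc12a1, Slc22a17, Slc22a23, Slc34a1, Spp1, Srebf2, Stat5a, Tgfbi) and 46 without the 5 kidneys (Abcc4, Acbd4, Arg2, Bhlhe41, Bst2, Cbs, Cox7a1, Cp, Cyp27b1, Cyp2d9, Cyp4a10, Cyp4a14, Egf, Elovl6, Esr1, Fads1, Fbp2, Gabarap, Ggt6, Hadha, Havcr1, Hsd17b11, Ido2, Insig1, Kynu, Mas1, Mgll, Mlxipl, Mpped1, Nr1i2, Nudt19, Oas1a, Pdk4, Pex11a, Pxmp4, Scd2, Slc12a1, Slc22a17, Slc22a23, Slc34a1, Spp1, Sqstm1, Srebf2, Stat5a, Tgfbi, Zbp1). None of them changed direction in either. The Pex5 log2 fold change was -0.29 (edgeR adjusted p = 0.0592) with the covariate and -0.25 (edgeR adjusted p = 0.163) without the 5 kidneys, and -0.36 to -0.28 with each kidney left out. Calls lost when single kidneys were left out were those of Arg2, Bhlhe40, Bhlhe41, Cyp27b1, Esr1, Gabarap, Havcr1, Ndufa4, Oas1a, Slc22a17, Spp1, Srebf2 and Stat5a. Fabp1 was not called and changed sign, to 0.15 with limma-voom, 0.0642 with the replicate block, 1.97 with the covariate, 2.41 without the 5 kidneys, and -0.75 to 0.0730 over the kidneys left out in turn. The cause of these changes was not tested. Of 1472 counts of called genes in the 64 lists under the alternatives, 1304 stayed within 1.5 times. Beside the lists given both ways above, the number of calls (rises and falls, against those of the reported comparison) moved by more than this factor with the covariate for NRF2 regulators and targets (1 and 6 against 3 and 8), autophagy and pexophagy (0 and 1 against 0 and 2), gluconeogenesis (1 and 4 against 1 and 7), immediate early genes (1 and 0 against 2 and 0), phosphate and vitamin D and Klotho (0 and 1 against 0 and 3) and triglyceride synthesis and breakdown (2 and 2 against 2 and 5). Without the 5 kidneys it did so for Abcb and Abcc efflux pumps (3 and 0 against 3 and 3), Cyp4 omega-hydroxylases (2 and 1 against 5 and 1), NRF2 regulators and targets (0 and 5 against 3 and 8), amino acid transporters (4 and 2 against 7 and 6), sex steroid handling (1 and 5 against 4 and 6), arginine and proline and creatine metabolism (0 and 1 against 3 and 2), autophagy and pexophagy (0 and 1 against 0 and 2), circadian clock (1 and 0 against 2 and 0), gluconeogenesis (0 and 5 against 1 and 7), immediate early genes (1 and 0 against 2 and 0), intercalated cells (1 and 1 against 3 and 1), kynurenine and NAD synthesis (0 and 5 against 2 and 6), methionine and cysteine and betaine metabolism (0 and 9 against 0 and 14), mitochondrially encoded genes (0 and 1 against 0 and 0), peroxins (0 and 1 against 1 and 2), phosphate and vitamin D and Klotho (0 and 1 against 0 and 3), polyamine metabolism (0 and 2 against 0 and 4), renin-angiotensin system (0 and 2 against 1 and 4), sugar and phosphate and sulfate and urate and carboxylate transport (1 and 4 against 3 and 7), triglyceride synthesis and breakdown (1 and 2 against 2 and 5) and tubule transcription factors (1 and 0 against 5 and 0).

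Replicate numbers did not pair the kidneys (correlation of same-numbered kidneys -0.0502 to 0.102, no kidney closest to its own number). With the replicate block 1823 genes were called. The interaction was called for 378 genes, 380 with RLE, 341 with limma-voom and 300 with every gene that had a count. Depth limits genes near 3 counts, such as Col6a6 and Mpped1 in cKOm kidneys.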
